A study of Homo sapiens with 4 samples.

Results

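The 9 genes described here (SERPINE2, CCN1, CCN2, TGFBI, SKIL, LTBP2, TAGLN, PMEPA1 and THBS1) are transcripts that TGF-β is known to induce through SMAD2 and SMAD3, most of them coding for proteins of the extracellular matrix or regulators of the pathway. They were chosen by name, with earlier results of these data known, as the TGF-β branch counterpart of the BMP target genes. They are 9 of the 58302 genes listed, and all 9 had enough reads to be tested among 16181 genes. The question was whether the change in the cells was limited to the BMP branch of the family.

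RNA-seq was performed on NCI-H838 cells, a line from a human lung carcinoma of the non-small cell type, carrying a doxycycline (dox)-inducible Cas9 and a guide RNA against MIB1 (MIB1-iKO cells). All groups share the engineered background: a piggyBac insert with the guide, a puromycin resistance gene and Cas9 under a reverse tetracycline transactivator, in cells grown from single-cell clones. There were 2 libraries without dox (no dox, MIB1 intact) and 2 libraries after 0.5 µg/mL dox (dox, MIB1 knockout), all at day 3. The labels name no added ligand or inhibitor, and the study describes its RNA-seq after 3 days of dox as under basal BMP signaling. The response of these genes to added TGF-β was therefore not measured. As no cells given dox without MIB1 editing enter the comparison, the effects of dox itself and of MIB1 loss cannot be told apart.

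TGF-β and BMP ligands signal through related receptor pairs but use different receptor-activated SMADs. TGF-β and activin receptors phosphorylate SMAD2 and SMAD3, which with SMAD4 bind short GTCT or CAGA elements, while BMP receptors phosphorylate SMAD1, SMAD5 and SMAD9, which prefer GC-rich elements. Several SMAD2/3 targets are also read by other factors: CCN1 and CCN2 are standard targets of YAP with TEAD, and TAGLN of serum response factor (SRF) with its MRTF partners.

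Promoter sequence was matched in the RefSeq table (GRCh38.p14) for 7 of the 9 genes, all but CCN1 and TAGLN. The 250 bases before the start site are shown for CCN2, the gene with the largest difference, for THBS1, the other gene of the 7 holding a TEAD motif, and for TGFBI, the gene with the smallest difference; capitals mark motif matches on either strand.
CCN2 promoter, chr6:131951373-131951622, minus strand: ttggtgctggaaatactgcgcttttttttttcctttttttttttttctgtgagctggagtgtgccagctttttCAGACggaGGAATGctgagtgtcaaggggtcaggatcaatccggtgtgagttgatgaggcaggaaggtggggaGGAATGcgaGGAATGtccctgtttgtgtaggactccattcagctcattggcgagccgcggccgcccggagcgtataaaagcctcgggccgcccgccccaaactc
THBS1 promoter, chr15:39580829-39581078, plus strand: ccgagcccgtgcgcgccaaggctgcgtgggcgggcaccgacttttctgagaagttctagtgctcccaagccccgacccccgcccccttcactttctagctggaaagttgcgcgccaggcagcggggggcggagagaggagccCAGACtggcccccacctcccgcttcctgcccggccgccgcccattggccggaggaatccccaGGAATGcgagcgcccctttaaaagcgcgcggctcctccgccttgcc
TGFBI promoter, chr5:136028738-136028987, plus strand: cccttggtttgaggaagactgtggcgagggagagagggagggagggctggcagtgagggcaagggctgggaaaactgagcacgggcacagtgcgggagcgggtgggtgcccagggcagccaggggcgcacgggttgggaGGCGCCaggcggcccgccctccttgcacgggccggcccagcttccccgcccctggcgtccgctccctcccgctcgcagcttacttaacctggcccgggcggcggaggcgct
A set of 6 short motifs were searched on both strands. In the CCN2 sequence the capitals are 1 SMAD box (CAGAC, positions -177 to -173, where -1 is the base before the start site) and 3 TEAD motifs (GGAATG, from -169, -104 and -95). The THBS1 sequence holds 1 SMAD box (-108 to -104) and 1 TEAD motif (-46 to -41), and the TGFBI sequence holds the BMP-type GC-rich SMAD element GGCGCC (-111 to -106) and neither of the others. Over the 7 genes, counting every listed start site, 4 held CAGAC (CCN2, THBS1, SKIL and PMEPA1), 4 held GGCGCC (TGFBI, SKIL, LTBP2 and PMEPA1) and 2 held GGAATG. None of the 7 held the palindrome GTCTAGAC, the AP-1 motif TGAGTCA or a CArG box, the SRF element. Of all 35114 promoters of this length in the table, 38% held CAGAC, 16.4% GGCGCC, 11.9% GGAATG, 4.2% TGAGTCA, 1.16% a CArG box and 0.182% GTCTAGAC. These shares are per promoter, whereas the counts over the 7 genes are per gene. They are not like for like, since SERPINE2 has 2 listed start sites and PMEPA1 has 4.

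The targeted gene followed the labels: MIB1 reads numbered 598 and 588 in the no dox libraries but 90 and 59 in the dox libraries (log2 fold change -2.58 ± 0.23, SE; adjusted p = 0.000375 by limma). Library totals ran from 15943025 to 24398411 reads, lower in both dox libraries. Epithelial markers were present (KRT7, KRT8, KRT18, EPCAM and CDH1), except KRT19, at 0 reads in all 4 libraries. Their log2 fold changes went both ways and none passed. KRT8 and KRT18 gave -0.34 and -0.41 (limma, adjusted p = 0.362 and 0.339), while KRT7, EPCAM and CDH1 gave 0.13, 0.13 and 0.25. The lung lineage genes NKX2-1 and SFTPB were also at 0, and NAPSA and SFTPC had at most 8 reads. The 8 fibroblast markers summed to 6.86 to 7.87 RPKM (reads per kilobase of gene model, scaled to library depth, as the authors deposited them), mostly THY1, with COL1A2 at 0 reads, and the endothelial and leukocyte markers were at or near 0. A count of 0 allows up to 3 reads, or 0.123 to 0.188 CPM (counts scaled to the library total) depending on the library.

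The TGF-β branch genes spanned a wide range of levels (shown in the plot of RPKM per library). Without dox, CCN1 was highest at 442 RPKM, above 98.9% of the genes tested, followed by TGFBI at 95.3, CCN2 at 18.2, SERPINE2 at 15.9, SKIL at 6.68, TAGLN at 4.95, PMEPA1 at 2.17, THBS1 at 0.628 and LTBP2 at 0.490. CCN2 and SERPINE2 could not be ordered without dox, since their libraries overlapped (16.6 and 19.7 against 14.2 and 17.7), and the other neighbours did not overlap. With dox the order of the means was the same, and CCN2 and SERPINE2 no longer overlapped.

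**Figure D1:**
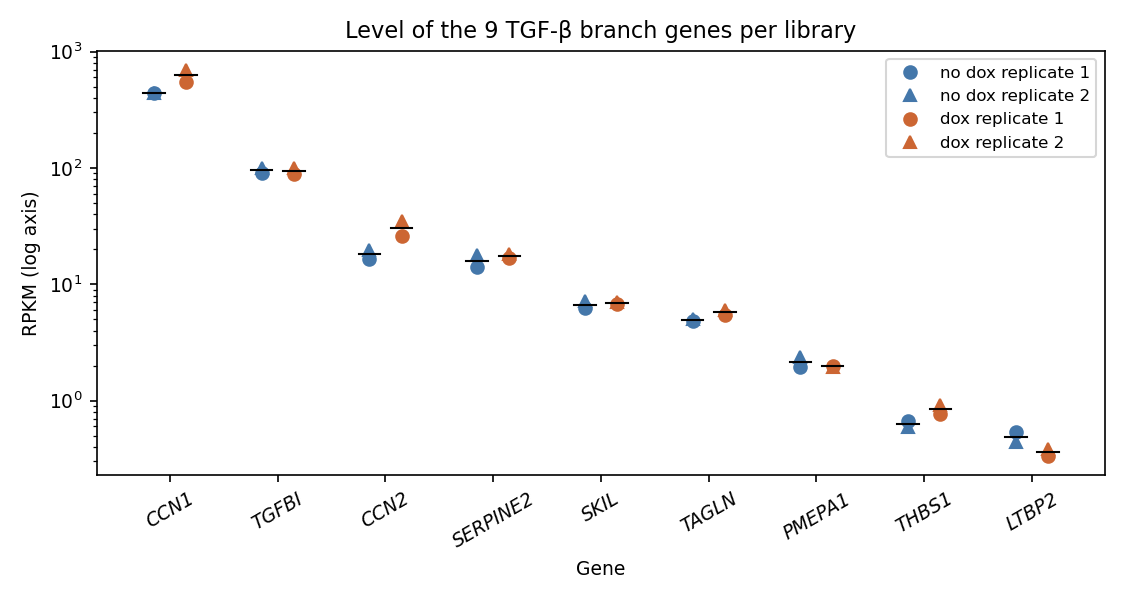
RPKM (log axis) of the 9 TGF-β branch genes in each library, 2 no dox (blue) and 2 dox (orange), with bars at the group means. CCN1 and CCN2 were higher in both dox libraries than in both no dox libraries, and the points of TGFBI and SKIL overlapped.

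None of the 9 TGF-β branch genes passed the test of dox against no dox. When both a 2-fold change and an adjusted p of 0.05 or lower were required, 0 of 9 were called, beside 6 of all genes tested (0.0371%); dropping the 2-fold requirement still left 0 of 9, beside 11 genes (0.068%) in limma. Among the other tools, edgeR gave 0 of 9 by either rule, beside 6 and 11 of all genes tested. DESeq2 gave 0 of 9 by the first rule, beside 5 genes. By the second rule DESeq2 gave 1 (CCN2, adjusted p = 0.0222), beside 26 genes. An unadjusted p under 0.05 was reached by 2 of 9 (CCN2 and CCN1), beside 9.28% of all genes. Log2 fold changes were above 0 for 7 genes and below 0 for 2, with a median of 0.18, whereas 49.9% of all genes tested were above 0. That median fell to 0.0074 without no dox replicate 1, and stood between 0.10 and 0.25 without each of the other libraries. The 95% interval of limma excluded a rise of 2-fold or more for 8 of 9 genes (all but CCN2). It excluded a fall of 2-fold or more for 8 of 9 (all but LTBP2), and it lay within 1.5-fold in either direction for 4. The 9 genes were chosen with earlier results of these data known, so these counts are not independent of that choice.

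The 2 groups did not overlap in CPM for 5 of 9 genes, beside 36.1% of all genes tested. Of these, CCN1, CCN2, TAGLN and THBS1 were higher with dox (18.7% of all genes) and LTBP2 was lower (17.4% of all genes). In bulk RNA a smaller share of cells with a transcript and less transcript per cell cannot be told apart.

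**Figure D2:**
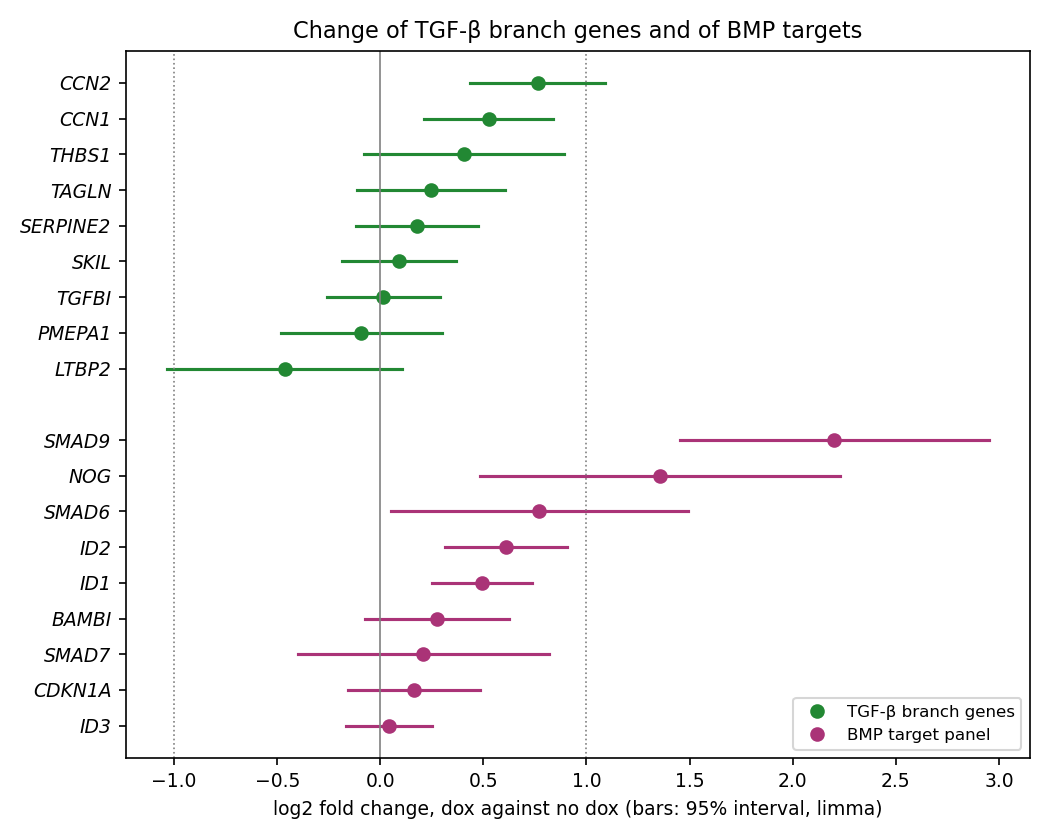
Log2 fold change, dox against no dox, of the 9 TGF-β branch genes (green) and the 9 tested BMP targets (purple), with bars for limma's 95% interval and dotted lines at 2-fold. The intervals of CCN2 and CCN1 lay above 0, and SMAD9 was the single gene here whose change passed the test.

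The 2 largest differences were those of CCN2 and CCN1, which code for secreted matricellular proteins that modulate adhesion and growth factor signals. CCN2 (connective tissue growth factor; chr6:131948176-131951372, minus strand, GENCODE 44 on GRCh38), whose promoter with 3 TEAD motifs is printed above, had 16.6 and 19.7 RPKM without dox and 26.1 and 34.7 with dox. Both dox libraries were above both no dox libraries, and dox replicate 2 was the highest. The group means were 18.2 ± 2.19 and 30.4 ± 6.11 (SD, n = 2 each), and the fitted fold was 1.70 (95% interval 1.35 to 2.13), log2 0.76 ± 0.15 (SE). By p it ranked 21 among the 16181 genes tested, yet its adjusted p in limma was 0.146, and 2.16% of genes had a higher log2 fold change.

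CCN1 (CYR61; chr1:85580761-85584589, plus strand) was the most abundant of the TGF-β branch genes, with no dox counts of 23798 and 22162 and dox counts of 19318 and 28865. Its RPKM was 442.3 and 442.1 without dox and 553 and 695 with dox, so the no dox libraries were nearly alike and the dox libraries were higher but far apart. The means were 442 ± 0.0939 and 624 ± 100.3 (SD, n = 2). The fitted fold was 1.44 (1.16 to 1.79; limma, adjusted p = 0.284).

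THBS1 (thrombospondin 1, a matrix glycoprotein that can activate latent TGF-β; chr15:39581079-39599466, plus strand) was low, at 0.662 and 0.593 RPKM without dox and 0.759 and 0.922 with dox, from 90 to 130 reads. The groups did not overlap, the means were 0.628 ± 0.0487 and 0.841 ± 0.115 (SD, n = 2), and the fitted fold of 1.32 (0.95 to 1.85; adjusted p = 0.623) did not pass. In RPKM dox replicate 2 was the highest library for 6 of the 9 genes: CCN1, CCN2, THBS1, SERPINE2, TGFBI and TAGLN.

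The pathway's own brakes among the 9 genes, SKIL and PMEPA1, overlapped between the groups. SKIL (SnoN, a co-repressor that binds SMAD2, SMAD3 and SMAD4; chr3:170357342-170396835, plus strand) had 6.20 and 7.16 RPKM without dox and 6.82 and 7.01 with dox, with both dox values between those without dox. Its fitted log2 fold change was 0.09 ± 0.13 (SE; adjusted p = 0.881). PMEPA1 (a membrane adaptor that holds SMAD2 and SMAD3 away from the receptor; chr20:57648392-57711536, minus strand) had 1.96 and 2.37 RPKM against 2.00 and 1.95, so the groups overlapped, with a log2 fold change of -0.09 ± 0.18 (adjusted p = 0.919).

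Among the matrix proteins, TGFBI (a secreted protein that links collagen and integrins; chr5:136028988-136063818, plus strand) had the smallest difference. Its RPKM was 90.4 and 100.2 without dox and 89.3 and 100.6 with dox, nearly the same pair of values in each group. The SDs were 6.87 and 7.98 (n = 2), and the fitted fold of 1.01 had a 95% interval of 0.84 to 1.22 (limma, adjusted p = 0.986). LTBP2 (a microfibril protein of the latent TGF-β binding family that does not itself bind latent TGF-β; chr14:74498183-74612378, minus strand) was lowest of the 9, at 0.537 and 0.443 RPKM without dox and 0.337 and 0.380 with dox. Both dox libraries were below both no dox libraries, on 44 to 108 reads, and the fitted fold of 0.73 (0.49 to 1.08; adjusted p = 0.629) did not pass.

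SERPINE2 (protease nexin 1, a secreted inhibitor of thrombin and plasminogen activators; chr2:223975045-224039318, minus strand) had 14.2 and 17.7 RPKM without dox and 16.7 and 18.2 with dox. The groups overlapped, with a fitted fold of 1.13 (0.92 to 1.39; adjusted p = 0.741). TAGLN (transgelin, an actin-binding protein; chr11:117199370-117207464, plus strand) had 4.87 and 5.02 RPKM without dox and 5.49 and 6.04 with dox. Its groups did not overlap, but the fitted fold of 1.19 (0.93 to 1.52; adjusted p = 0.697) did not pass.

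How far single libraries moved the log2 fold changes differed between the 9 genes (seen in the plot with one library left out). Replicate 2 was above replicate 1 in CPM for 7 of 9 genes without dox and 9 of 9 with dox, beside 60.9% and 63.8% of all genes tested. Without dox replicate 2 the log2 fold change of CCN2 was 0.55 and that of CCN1 0.22, and without dox replicate 1 they were 0.98 and 0.82. Over the 4 omissions SERPINE2 ran from 0.0074 (without no dox replicate 1) to 0.35 (without no dox replicate 2), THBS1 from 0.24 to 0.57, TAGLN from 0.17 to 0.32 and LTBP2 from -0.59 to -0.32. TGFBI changed sign without no dox replicate 1 or dox replicate 2, SKIL without no dox replicate 1 and PMEPA1 without no dox replicate 2.

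**Figure D3:**
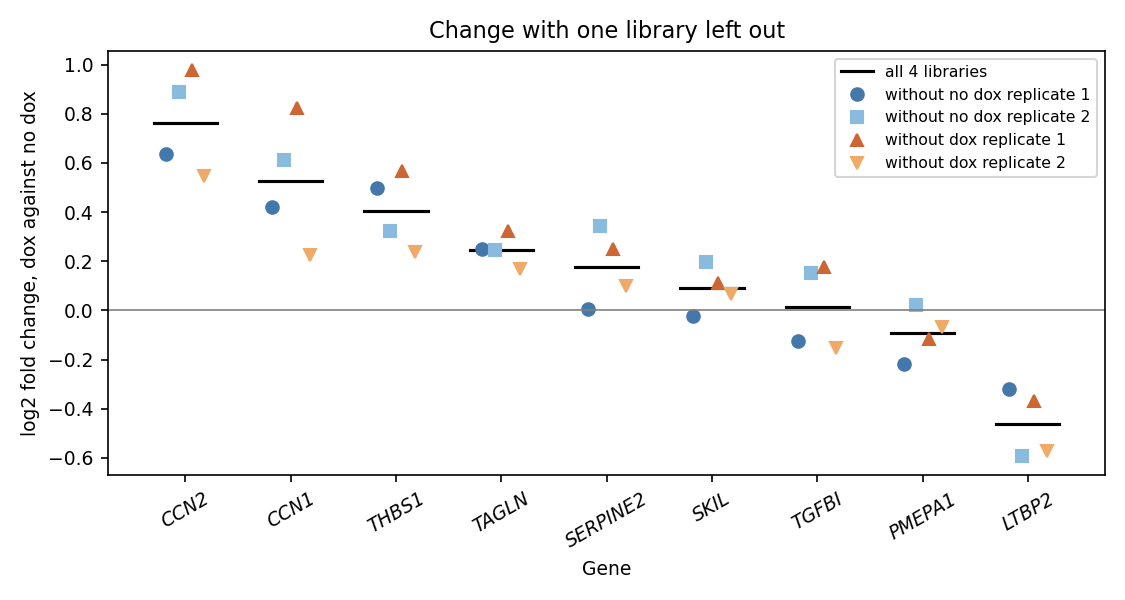
Log2 fold change of each TGF-β branch gene with all 4 libraries (bar) and with each library left out in turn (points). CCN2, CCN1, THBS1 and TAGLN stayed above 0 and LTBP2 below 0 in each case, and CCN1 ran from 0.22 to 0.82.

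The BMP target panel was set beside these values. Of its 10 genes 9 were tested (ID4 had 6 to 8 reads), all 9 were above 0 with a median of 0.49, and 1 was called. That gene was SMAD9, a BMP-responsive SMAD, with no dox counts of 20 and 24 and dox counts of 60 and 96 (log2 fold change 2.20 ± 0.35, adjusted p = 0.0265). The BMP antagonist NOG followed at 1.36 and the inhibitory SMAD6 at 0.77, both on fewer than 60 reads in any library. Leaving out no dox replicate 1 lowered them to 0.62 and 0.45, and leaving out no dox replicate 2 raised them to 2.00 and 1.05. The helix-loop-helix regulators gave 0.61 for ID2, 0.49 for ID1 and 0.04 for ID3, and BAMBI, SMAD7 and CDKN1A gave 0.27, 0.21 and 0.16; of these 8 genes none passed (lowest adjusted p = 0.167, ID1 and ID2). On the same log2 scale CCN2 at 0.76 lay between SMAD6 and ID2, and CCN1 at 0.53 lay between ID2 and ID1. The difference between the 2 groups of genes was not tested. The values do not settle whether the change was limited to the BMP branch. The panel also holds genes for which the study itself reports effects of MIB1 loss. Under basal BMP signaling these were SMAD9, with modest, non-significant effects on ID genes and NOG. After inhibitor washout they were BAMBI, NOG and CDKN1A. With the BMP receptor inhibitor kept on, the study reports SMAD9 as higher after MIB1 loss too. The SMAD9 call and the shared direction are therefore not independent of how the genes were chosen. SMAD7 is also counted among the pathway brakes below.

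Upstream, none of the TGF-β pathway genes listed here passed the test, and other genes of the pathway were not listed. Few genes passed anywhere: of all 16181 tested, 6 (0.0371%) were called and 11 (0.068%) had an adjusted p of 0.05 or lower. Of 14 genes for ligands, latency proteins and activating integrins 11 were tested and none passed, 5 above and 6 below 0, with a median log2 fold change of -0.01. The ligands TGFB1 and TGFB3 gave 0.01 and -0.01, and TGFB2 gave -0.48 on 34 to 97 reads (adjusted p = 0.663). LTBP1 gave -0.19, and the highest were LTBP3 at 0.32 and the integrin ITGB8 at 0.31. Of 8 receptor and SMAD genes 7 were tested and none passed, with a median of 0.04. They ran from TGFBR2 at 0.11 and the co-receptor TGFBR3 at 0.08 to SMAD3 at -0.13 and the activin receptor ACVR1B at -0.44. ACVR1B had 18 reads in dox replicate 1 and 62 to 74 in the other libraries. Of 10 SMAD2/3 brakes 9 were tested and none passed, 7 above 0, with a median of 0.14. The ubiquitin ligase NEDD4L was highest at 0.35 (adjusted p = 0.437), then SKI at 0.30 on 19 to 29 reads and SMAD7 at 0.21, and the phosphatase PPM1A lowest at -0.22, before SMURF2 at -0.02.

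A further list of 30 TGF-β target genes was counted. Of these 20 were tested, none passed, 13 were above and 7 below 0, and the median was 0.10, while 6 genes had 0 reads in all libraries. An unadjusted p under 0.05 was reached by 5 of the 20. The collagen cross-linking enzyme LOX had the highest value at 0.98 on 24 to 45 reads (adjusted p = 0.394). Where the mean count reached 50, the cytokine IL11 was highest at 0.55 (adjusted p = 0.453) and the stress gene GADD45B next at 0.48, and COL1A1 was lowest at -0.56 with 22 reads in dox replicate 1 and 82 to 89 in the other libraries. ANGPTL4, a regulator of lipoprotein lipase, gave -0.19.

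Because CCN1, CCN2 and TAGLN are also read by other factors, the targets of those factors were counted. Of 20 YAP and TEAD targets 19 were tested and none passed, 14 above 0, with a median of 0.14. ANKRD1, a muscle ankyrin repeat protein, was read 51 and 37 times without dox, 73 and 61 times with dox (log2 fold change 1.01, adjusted p = 0.306), RBMS3 gave 0.64, and FJX1 and MYOF gave -0.36 and -0.12. Of 14 SRF and MRTF targets 13 were tested, 9 above 0, with a median of 0.11. In that list ACTC1, cardiac α-actin, was the 1 gene with an adjusted p of 0.05 or lower (473 and 431 reads without dox, then 561 and 742 with dox; log2 fold change 0.99 ± 0.14, adjusted p = 0.0242), just under 2-fold. TPM1 gave 0.28, and the cytoplasmic actins ACTG1 and ACTB gave -0.14 and -0.10. The part of these factors in the values of CCN1, CCN2 and TAGLN was not tested.

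**Figure D4:**
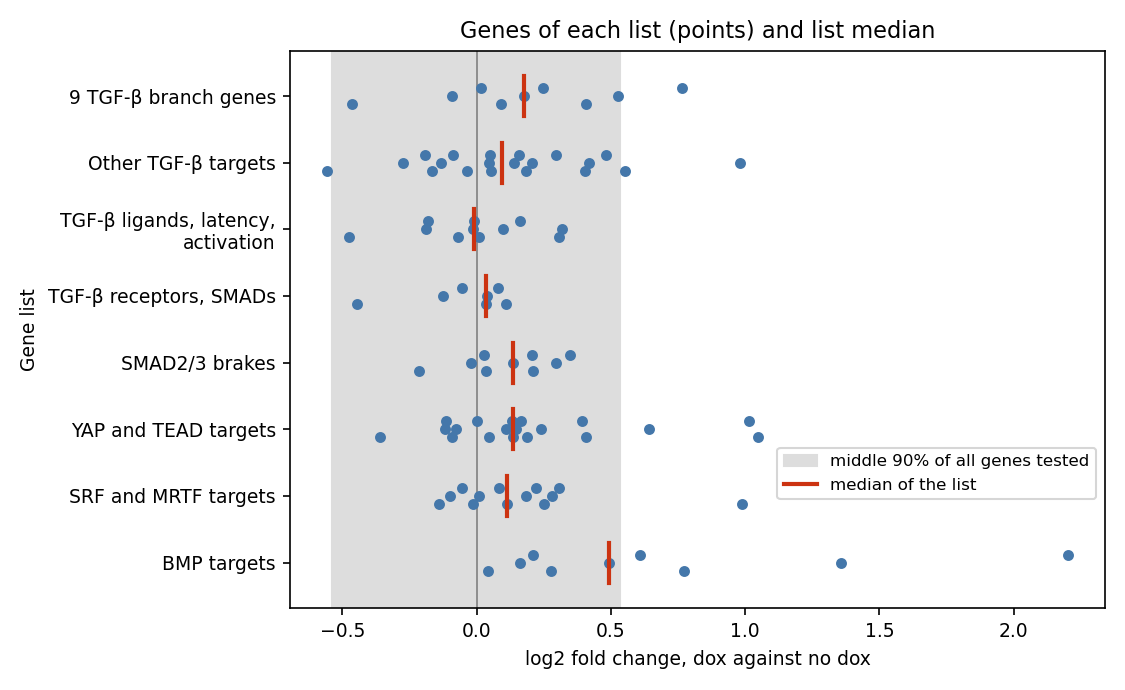
Log2 fold change, dox against no dox, of each tested gene (points) in 8 gene lists, with the list median in red and the middle 90% of all genes tested in grey (-0.54 to 0.54). All TGF-β branch genes but CCN2 lay inside the grey band.

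Close relatives of the 9 genes were examined next. Of 18 paralogs 8 were tested and none passed. CCN5 was the one other CCN gene with more than a few reads (log2 fold change -0.22, 312 to 646 reads), and CCN3 had 0 reads, CCN4 at most 1 and CCN6 at most 3. Log2 fold changes were 0.32 for LTBP3, 0.30 for SKI, 0.10 for LTBP4, 0.08 for THBS3, -0.05 for TAGLN2 and -0.19 for LTBP1.

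With 2 libraries a group an exact permutation test of a single gene cannot go below p = 0.333, so each p rests on the spread shared across genes by limma. Genes on the opposite strand overlap exons of CCN2, LTBP2, TAGLN, PMEPA1 and THBS1; the partners of TAGLN (PCSK7, 129 to 192 reads), PMEPA1 (NKILA, 133 to 208) and THBS1 (FSIP1, 16 to 63) carried reads, and as counting by strand is not stated, such reads cannot be told apart.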

How the data were processed

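RNA-seq libraries of MIB1-iKO NCI-H838 cells were grouped by their labels, 2 no dox and 2 dox. Per the methods of the study, the authors discarded ribosomal reads, aligned single-end reads to GRCh38 with GSNAP and counted exonic reads with HTSeqGenie. The deposited counts are whole and unnormalised. The deposited RPKM carry a further scaling by library: relative to no dox replicate 1 the factors were 0.932, 0.649 and 0.771, against 0.869, 0.653 and 0.699 for the totals. The methods name RefSeq annotation but the tables use Ensembl identifiers, and the kit used for these libraries (low-input or stranded) is not given in the sources used here. GENCODE 44 names matched 57532 of 58302 identifiers.

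Counts were filtered with filterByExpr (16181 genes), a step the study's methods do not state. As those methods describe, they were then scaled by library total, quantile-normalised, weighted with voom and fitted with limma 3.58.1 in R 4.3.3, without covariates. P-values are two-sided and Benjamini-Hochberg adjusted over all genes tested. A call required an adjusted p of 0.05 or lower with a log2 fold change of 1 or more in size. RPKM served for levels. The smallest chi-square per degree of freedom between 2 libraries was 8.18, so none repeated another. The study calls the replicates biological, but nothing in the labels says what the number marks, and p-values then measure the spread between these libraries. Count limits cover counting error only.

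The members and gene lists were chosen with earlier results of these data known. Named are the 9 genes, MIB1, the BMP targets, the tested paralogs (1 is not reported here) and, from each other list, genes with an adjusted p of 0.05 or lower and, where the mean count reached 50, the 2 highest and 2 lowest; TGFB1, TGFB3, LOX, the cell markers and the overlapping genes were named in addition, after their values were seen. Lists were typed from general knowledge. Alternatives were edgeR 4.0.16 (quasi-likelihood, TMM), DESeq2 1.42.0 without independent filtering, voom with TMM or library totals, other filters, limma on log2(RPKM + 0.1) or log2(RPKM + 1), the replicate number as a block, thinning to the smallest total, and leaving out each library. Scripts were tested on simulated data. The motifs were searched in the 250 bases before each RefSeq start site.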

Additional observations from a re-analysis of the deposited data

How the results depend on the processing

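None of the TGF-β branch genes was called at 2-fold under any alternative, and their median log2 fold change stayed between 0.13 and 0.21 outside the leave-one-out fits, where it ran from 0.0074 to 0.25. CCN2 stayed above 0, at 0.70 to 0.77 outside the leave-one-out fits and 0.55 to 0.98 within them (adjusted p up to 0.896). Its adjusted p fell below 0.05 with DESeq2 (0.0222) and after thinning (0.0431), and was 0.0805 with edgeR and up to 0.613 with no filter beyond 1 read. The replicate block uses numbers that are not stated to pair the libraries (correlation of deviations 0.23, 2 pairs). With it in limma, CCN1 at 0.53 (adjusted p = 1.32e-13) and CCN2 at 0.77 (adjusted p = 1.36e-10) passed 0.05 while staying under 2-fold. Of the BMP targets, besides SMAD9, ID1 at 0.49 (2.47e-07), ID2 at 0.61 (3.63e-05) and NOG at 1.22 (0.0158) passed 0.05 too. The block leaves fewer degrees of freedom, so these p-values rest even more on the spread shared across genes than in the main fit. The count of genes called, 6, became 11 with the adjusted p alone, 78 with the replicate block (1154 at the adjusted p alone), and 0 with no filter beyond 1 read (2092 at an unadjusted p under 0.05), on log2(RPKM + 0.1) (1442) and on log2(RPKM + 1) (1438); it was 0 to 0 in the leave-one-out fits (833 to 1043 unadjusted), where the lone library is assumed to vary like the other group. These counts by edgeR and DESeq2 were 6 and 5. Small differences changed sign: TGFBI with voom and TMM (-0.0015), on log2(RPKM + 0.1) and log2(RPKM + 1) (-0.0055 each) and, over the omissions, from -0.151 to 0.178, SKIL from -0.0228 to 0.199, PMEPA1 from -0.219 to 0.0216, ID3 from -0.0186 to 0.105, SMAD7 from -0.0459 to 0.492 and CDKN1A from -0.0305 to 0.349. MIB1 (-3.00 to -2.16 over the omissions) and SMAD9 lost their calls with no filter beyond 1 read, on both log2(RPKM) scales and without any 1 library (SMAD9 1.95 to 2.46). SMAD6 and NOG have no value at a mean count of at least 50. The cause of these shifts was not tested.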
